A study of Rattus norvegicus with 6 samples.

Results

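The miR-7 family of microRNAs (miRNAs) was followed in rat INS-1 lines. Its members were taken by name, as every gene of the deposited table called Mir7a or Mir7b, with or without a copy number. This gave 3 genes, Mir7a1 (ENSRNOG00000035613), Mir7a2 (ENSRNOG00000035477) and Mir7b (ENSRNOG00000049078), of 462 miRNA genes and 32883 genes in all. The rule itself uses no measured value, but the family was picked with earlier results of these data known.

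The small RNA libraries came from 6 clones of INS-1(832/13)::mCherry cells, an insulinoma-derived β-cell model that carries an insulin transgene tagged with the red fluorescent protein mCherry. The 3 control lines (5-9, 2 and 16) have lost the imprinted domain of Prader-Willi syndrome (PWS) from the inactive maternal chromosome, whereas the 3 PWS lines (3, 19-1 and 19-4) have lost it from both chromosomes. All 6 lines thus carry the maternal deletion, were grown in 7.5 mM glucose and gave 1 library each. Control lines 2 and 16 came from line 5-9 cells that received a control vector, the PWS lines came from line 5-9 cells edited once more, and lines 19-1 and 19-4 are 2 subclones of a single edited line.

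A miRNA is cut from a hairpin precursor and guides an Argonaute protein to messenger RNAs that pair with its seed, the bases near its 5′ end, which lowers their translation and stability. miR-7 is an old and highly conserved family that is abundant in pituitary, neurons and the endocrine cells of the pancreas. In pancreatic β-cells it is known as a brake on insulin secretion and on growth signaling through the mTOR pathway.

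The mature RNAs are shown because they decide which members could be told apart by sequencing. In the RefSeq miRNA table (GRCr8) Mir7a1 and Mir7a2 give one and the same mature RNA of 23 bases from the 5′ arm of the hairpin, and Mir7b gives its own. The seed, bases 2 to 8, is in capitals.
rno-miR-7a-5p (Mir7a1 and Mir7a2): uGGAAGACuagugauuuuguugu
rno-miR-7b (Mir7b): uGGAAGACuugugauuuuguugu

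The miR-7a and miR-7b RNAs differed by 1 substitution, A10U, with miR-7a first and positions counted from the 5′ end. It lies outside the seed, so all 3 genes share a seed. Of 724 mature entries of the table, 3 held this seed and all 3 were entries of the miR-7 genes. The opposite arms of the Mir7a1 and Mir7a2 hairpins do differ, also in the bases at the seed position, in capitals here.
rno-miR-7a-1-3p (Mir7a1): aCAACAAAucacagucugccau
rno-miR-7a-2-3p (Mir7a2): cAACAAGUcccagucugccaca

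The 3 hairpins are shown with the 5′ mature RNA in capitals, because Mir7a1 and Mir7a2 differ only outside the capitals. On GRCr8 the Mir7a1 hairpin lies at chr17:6278692-6278788 on the plus strand, within the span of Hnrnpk, which encodes an RNA-binding protein. The Mir7a2 hairpin lies at chr1:142215800-142215894 (plus strand) within an unnamed long noncoding RNA gene, and the Mir7b hairpin at chr9:1167436-1167545 (plus strand) within the span of a ribosomal protein pseudogene, Rpl35l3. The authors counted on another build, Rnor_6.0, so these positions apply to the printed sequences and not to the deposited counts.
Mir7a1 hairpin: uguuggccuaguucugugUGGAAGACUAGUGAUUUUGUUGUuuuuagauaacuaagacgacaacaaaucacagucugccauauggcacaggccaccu
Mir7a2 hairpin: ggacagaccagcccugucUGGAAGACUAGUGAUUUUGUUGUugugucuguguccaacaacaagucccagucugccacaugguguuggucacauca
Mir7b hairpin: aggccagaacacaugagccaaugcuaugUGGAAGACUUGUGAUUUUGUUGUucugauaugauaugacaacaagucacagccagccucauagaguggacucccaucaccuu

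The longest run of bases common to the Mir7a1 and Mir7a2 hairpins was 24, the mature RNA and 1 base after it. Either of them shared at most 14 bases in a row with the Mir7b hairpin. A read of the mature miR-7a RNA therefore matches 2 loci equally well. For multicopy miRNA genes the authors used the HTSeq option that adds ambiguous reads to every gene. How many matches the aligner passed on for such a read is not given in the sources used here. A read may thus have been counted at either locus or at both.

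The libraries held 7373691 to 16480475 reads, of which 88.6% to 90.2% fell on miRNA genes. The 2 shallowest, control line 2 and PWS line 19-4, also had the lowest miR-7a level of their groups. The genes named Snord116, snoRNAs of the deleted domain, had 2 or 3 reads in all in each PWS line against 4251 to 10516 in each control line, which fits the labels. The β-cell miRNA Mir375 stood at 558022 to 833397 normalized reads and fragments of Ins1 were present in every line, although Ins2 had 0 reads in line 19-4 and Mafa had reads in line 3 alone. In contrast, the hormone genes of other islet cells, Gcg, Sst, Ppy and Ghrl, had 0 reads. The 10 miRNA genes that mark other lineages summed to 493 to 888 normalized reads in control and 298 to 602 in PWS lines. Most of these came from the 3 copies of Mir124, a neuronal miRNA, at 46.1 to 265 each. Mir142 (blood) had 43.1 to 75.1, Mir143 (smooth muscle and fibroblasts) 13.1 to 48.8 and Mir126a (endothelium) 13.9 to 35.6, whereas Mir145 was at 0 and Mir223 (blood) at 0 to 3.92. Their part in the miR-7 levels was not tested.

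Levels are given in normalized reads, which are unique-molecule reads per gene divided by a size factor for each library. Levels of miRNA genes are compared as reads, without division by length. Read lengths were not examined, and whether different miRNAs were captured equally well was not tested. Ranks and ratios between miRNAs are thus those of reads. Mir7a1 had 1258261 normalized reads in control line 5-9, 620377 in control line 2 and 1121963 in control line 16. In the PWS lines it had 922445 in line 3, 1001918 in line 19-1 and 740374 in line 19-4. The highest and the lowest values thus both belonged to control lines, and the PWS lines lay between them.

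Mir7a2 followed Mir7a1 closely, with 1264776 normalized reads in line 5-9, 623497 in line 2 and 1105213 in line 16. Its PWS values were 929051 in line 3, 1007154 in line 19-1 and 749767 in line 19-4. The order of the lines was the same for both genes, from line 5-9 down through 16, 19-1, 3 and 19-4 to line 2. With 1 library per line, neighbors in that order could be compared against counting error only.

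Mir7b was far less abundant, with 1288 normalized reads in line 5-9, 641 in line 2 and 1001 in line 16. In the PWS lines it had 1101 in line 3, 1652 in line 19-1 and 940 in line 19-4. These values rested on 490 to 1853 reads per library. Line 2 was the lowest here as well, but the highest line was 19-1, a PWS line. The values of the control and PWS lines overlapped for each of the 3 genes.

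**Figure D1:**
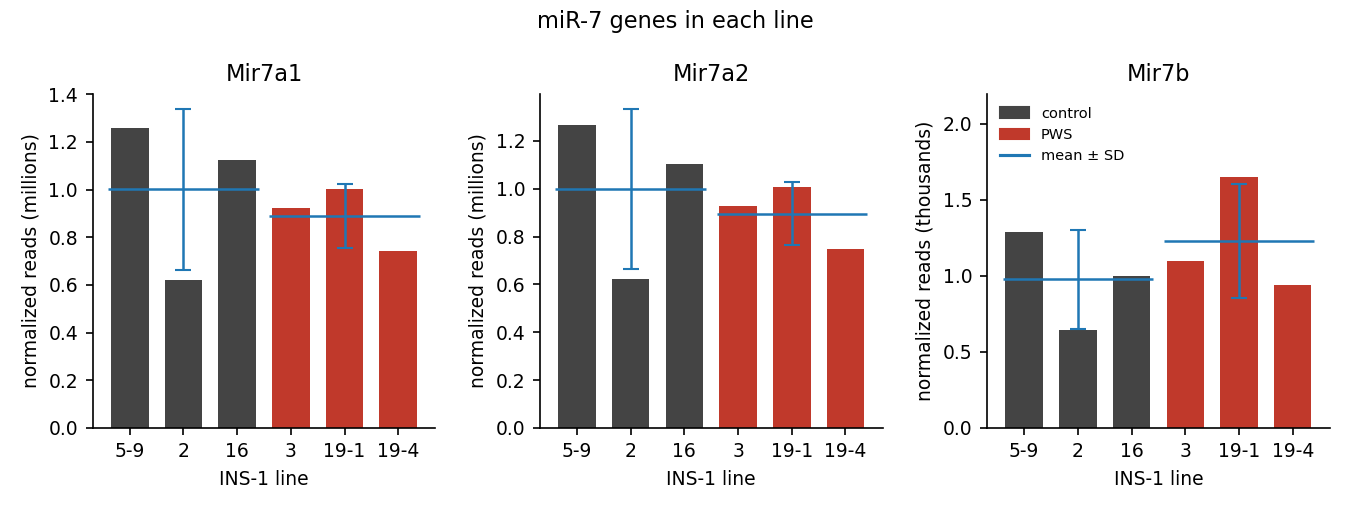
Normalized reads of Mir7a1, Mir7a2 and Mir7b in each line, on a separate scale for each gene, with bars in grey for control and red for PWS lines and the mean ± SD of each group (n = 3) in blue. Control line 2 is the lowest bar in all 3 panels, and the PWS bars of Mir7a1 and Mir7a2 lie inside the range of the control bars.

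The miR-7a reads were split between their 2 loci almost evenly. Mir7a1 took 49.87% of them in line 5-9, 49.87% in line 2 and 50.38% in line 16, and 49.82%, 49.87% and 49.68% in PWS lines 3, 19-1 and 19-4. Although close to 50%, these shares were off an even split by 2.45 to 12.8 counting SDs, with the largest departure in line 16, the one line in which Mir7a1 had more reads than Mir7a2. The mean share was 50.04% ± 0.291 in control and 49.79% ± 0.0959 in PWS lines (SD, n = 3), a difference of -0.248 percentage points with p = 0.1 in an exact two-sided permutation test, the lowest value this test can give at this size. Without line 16 the difference was -0.0807 percentage points. The deposited table in which reads of ambiguous assignment had been left out held the same read numbers for all 3 genes. Because the mature sequence is shared, the split is not a measure of how much each locus made, and the sum of both genes is called miR-7a from here on. The sum counts each RNA once where a read was placed at 1 locus. Where it was counted at both, the sum must be halved, and both values are given below.

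By the sum of its loci miR-7a had the most reads of any miRNA in all 6 lines. Grouping genes that share a mature sequence of either arm left 436 gene groups, and miR-7a ranked 1 among them in each line. A group can hold different miRNAs, such as Mirlet7a1 with Mirlet7c1 and Mirlet7c2, and genes without a RefSeq match stayed single. With its reads halved and all other genes left as counted, it ranked 1 in lines 5-9, 16, 3 and 19-1, but 4 in line 2 and 3 in line 19-4. The sum came to 2523037, 1243874 and 2227176 normalized reads in control lines 5-9, 2 and 16. The PWS lines 3, 19-1 and 19-4 had 1851497, 2009072 and 1490142. The miRNA next in abundance was Mir375 in lines 5-9, 3 and 19-1, Mir16 in lines 2 and 19-4, and Mir148a in line 16, and miR-7a exceeded it by 1.45-fold in line 2 to 3.16-fold in line 16. Mir375 itself, an islet miRNA that is the usual reference for β-cell identity, was exceeded 1.89-fold in line 2 and 2.41- to 3.20-fold in the other lines, while halved miR-7a was 0.946 times Mir375 in line 2 and 1.21 to 1.60 times in the others. Mirlet7f2, the let-7 gene with the highest mean over the lines, had 469427 to 660821 normalized reads. Mir7b, in contrast, ranked between 108 and 129 among single miRNA genes.

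As a share of all miRNA reads the family took 24.0% in line 5-9, 14.0% in line 2 and 23.4% in line 16. The share was 21.1% in line 3, 20.8% in line 19-1 and 17.3% in line 19-4. The means were 20.5% ± 5.65 for control and 19.7% ± 2.11 for PWS lines (SD, n = 3), or 18.3% ± 5.09 and 17.7% ± 2.03 of all reads. The groups overlapped in both. With miR-7a halved the family took 7.51% to 13.7% of miRNA reads in control and 9.48% to 11.8% in PWS lines. Leaving out control line 2 moved the difference, PWS minus control, from -0.732 to -3.99 percentage points, and its sign turned without line 5-9 (1.04), line 16 (0.750) or line 19-4 (0.485).

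The let-7 miRNAs, a large family linked to differentiation, served as a comparison. Its 9 genes by symbol together gave fewer reads than the miR-7 family in 5 of the 6 lines, in which the family had 1.09 to 1.41 reads per let-7 read. In line 2 the ratio was 0.649. With miR-7a halved the ratio was 0.325 to 0.703, below 1 in all 6 lines. The let-7 reads were left as counted there, although some let-7 genes share a mature sequence as well. In line 2 the let-7 genes had 1918537 normalized reads, the highest of all lines, while the miR-7 family had its lowest level. The miRNA reads outside the family varied little by comparison, from 6932561 in line 3 to 7981555 in line 5-9, and stood at 7672619 in line 2.

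**Figure D2:**
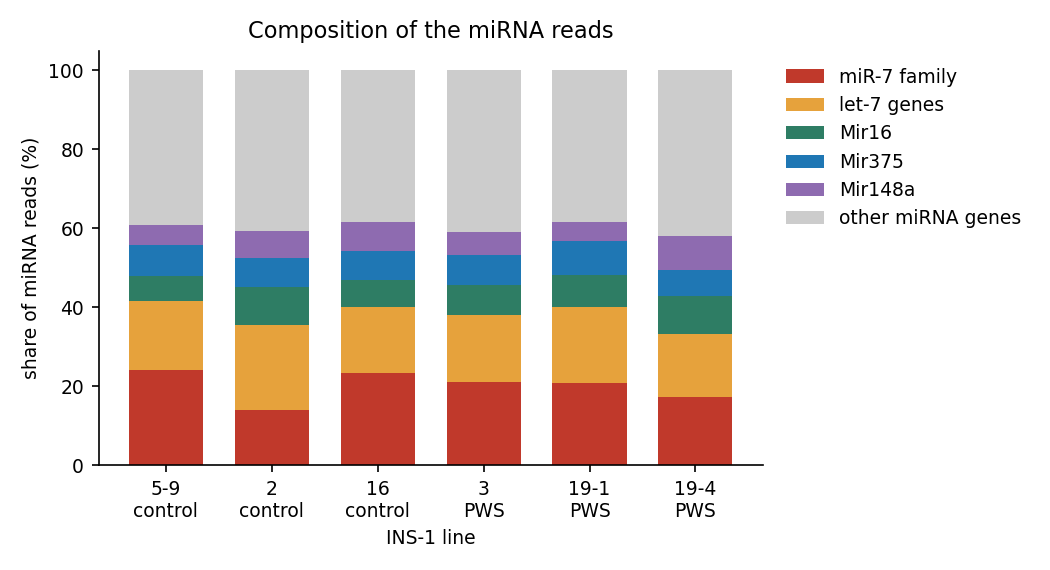
Share of miRNA reads (%, stacked to 100) taken by the miR-7 family, the 9 let-7 genes, Mir16, Mir375, Mir148a and all other miRNA genes in each line. The miR-7 family (red, at the base) takes 14.0% in control line 2 and 17.3% to 24.0% in the other lines.

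The difference between control lines was larger than that between genotypes. Line 5-9 exceeded line 2, which was derived from it, by 2.03-fold for Mir7a1, 2.03-fold for Mir7a2 and 2.01-fold for Mir7b. Line 2 had 0.521, 0.526 and 0.560 times the mean of the other control lines for the 3 genes. Over the 120 miRNA genes that averaged 1000 or more normalized reads, the median of this ratio was 0.943, and the 3 members ranked 6, 7 and 9 from the lowest. Without the 2 of these genes that are miRNA by RefSeq biotype but not by symbol, Scarna15 and Snora58, the median was 0.945 and the ranks were 6, 7 and 9. Of these 120 genes, 21 had their lowest value of all 6 lines in line 2. The subclones 19-1 and 19-4, made from one edited line, differed by 1.35-fold for Mir7a1, 1.34-fold for Mir7a2 and 1.76-fold for Mir7b.

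The SD of the log2 level over the control lines was 0.55 for Mir7a1, 0.54 for Mir7a2 and 0.51 for Mir7b, against a median of 0.20 for the 120 genes. These SDs ranked 8, 9 and 12 from the largest. Over the PWS lines the SDs were 0.23, 0.22 and 0.42, and the median was 0.28. The miR-7a genes thus spread more than most abundant miRNAs among control lines and less than the median among PWS lines. The difference in spread between the groups was not tested, and the part of the lower depth of line 2 in its low miR-7 level was not tested.

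**Figure D3:**
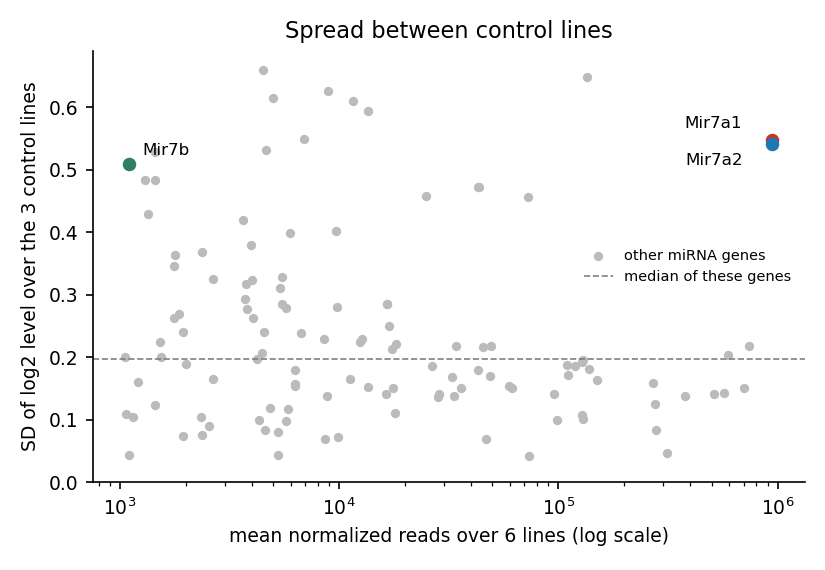
SD of the log2 level over the 3 control lines (vertical axis) against the mean normalized reads over 6 lines (horizontal axis, log scale) for 120 miRNA genes with a mean of at least 1000. Mir7a1 (red) and Mir7a2 (blue) are the most abundant genes and lie at an SD near 0.55, and Mir7b (green) lies at 0.51, above the median of 0.20 (dashed line).

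The comparison of PWS with control lines asked whether loss of the active paternal copy of the domain altered the family. None of its genes passed the test. Mir7a1 had a mean of 1000200 ± 335922 normalized reads in control lines and 888246 ± 134084 in the PWS group (SD, n = 3). The log2 fold change of PWS minus control was -0.12 ± 0.24 (SE), with an adjusted p of 0.950 by limma over all tested genes. The 95% interval ran from -0.63 to 0.40, which corresponds to 0.644- to 1.32-fold.

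For Mir7a2 the means were 997829 ± 333853 and 895324 ± 131966, and the log2 fold change was -0.10 ± 0.24 (95% interval -0.62 to 0.41, adjusted p = 0.956 by limma). Since both genes count one pool of RNA, these are not separate results. Mir7b had means of 977 ± 325 and 1231 ± 374 and a log2 fold change of 0.35 ± 0.30, with an interval of -0.28 to 0.98, or 0.824- to 1.97-fold (adjusted p = 0.887 by limma). A fall of miR-7a to 0.644 times or a rise of Mir7b to 1.97 times the control level thus still lay within the intervals. The limma p-values and intervals rest on the spread between clonal lines, drawn toward a trend over all tested genes. Around the group means the SD of the log2 level was 0.42 for Mir7a1, 0.41 for Mir7a2 and 0.47 for Mir7b. The median of the 120 abundant miRNA genes was 0.27. The members' intervals are narrower than their own spread alone would give. With 1 library per line, the spread of lines and that of libraries are not separable.

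Among all 4292 genes tested, 55 were called at an adjusted p under 0.1, or 1.28%, and among 262 miRNA genes 8 were called, or 3.05%. With 0 of 3 called, the members were like most genes in this respect. A log2 fold change of larger size was found for 80.1% of all tested genes in the case of Mir7a1, 82.4% for Mir7a2 and 48.2% for Mir7b. The median log2 fold change of the 3 members was -0.10, beside -0.14 for tested miRNA genes and 0.0048 for all tested genes.

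Single lines decided the sign for miR-7a. Without line 5-9 the log2 fold change of Mir7a1 was 0.079, without line 19-4 it was 0.0069, and without line 2 it was -0.43 (adjusted p = 0.818 by limma). With both shallow libraries, lines 2 and 19-4, left out it was -0.31 (adjusted p = 0.940). The log2 fold change of Mir7b stayed above 0 with any single line left out, from 0.075 to 0.58.

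**Figure D4:**
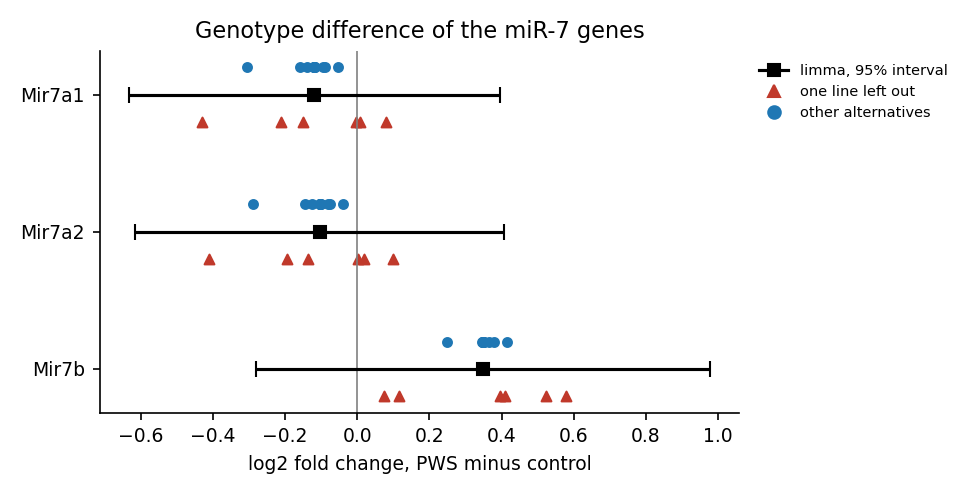
Log2 fold change of each member, PWS minus control, with squares and bars for the limma estimate and its 95% interval, triangles for fits with 1 line left out and circles for the other alternatives. All 3 intervals include 0, the triangles of Mir7a1 run from -0.43 to 0.079, and those of Mir7b from 0.075 to 0.58.

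Within the family the balance between Mir7b and miR-7a reads, whichever hairpin arm they came from, was measured without any size factor. Mir7b had 0.511 reads per 1000 miR-7a reads in control line 5-9, 0.515 in line 2 and 0.449 in line 16. In the PWS lines 3, 19-1 and 19-4 the ratio was 0.594, 0.822 and 0.631. Every PWS line was thus above every control line, although the levels of Mir7b and of miR-7a overlapped. With 1 base between RNAs so unequal in amount, the part of misread miR-7a in the Mir7b counts was not tested. In line 2 the ratio was close to that of line 5-9, since Mir7b and miR-7a were both lower there by about the same factor.

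The mean ratio was 0.492 ± 0.0367 in control and 0.683 ± 0.123 in PWS lines (SD, n = 3), a 1.39-fold difference that does not depend on whether miR-7a is halved. The exact two-sided permutation test gave p = 0.1, the smallest p this test can give for 3 lines against 3, so it could not reach a threshold of 0.05. With subclones 19-1 and 19-4 averaged to 1 sample the difference was 0.176 and p = 0.2, again the smallest that the exact permutation test gives at that size. The difference of 0.191 fell to 0.121 without PWS line 19-1. Other miRNAs set against miR-7a in the same way give the background. Of 177 miRNA genes that averaged 100 or more normalized reads, 18 had ratios to miR-7a that did not overlap between the groups (10.2%), and 4 had every PWS line above every control line (2.26%). For counting error alone, the 95% Wilson interval reached 0.562 Mir7b reads per 1000 family reads at most in a control line (line 2) and started at 0.568 at least in a PWS line (line 3).

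**Figure D5:**
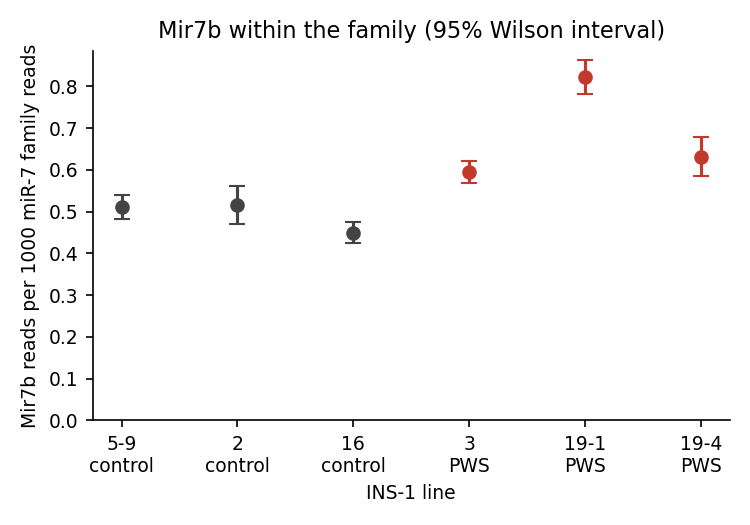
Mir7b reads per 1000 reads of the miR-7 family in each line, with 95% Wilson intervals that cover counting error only (grey for control, red for PWS lines). The control lines lie between 0.449 and 0.515 and the PWS lines between 0.594 and 0.822, with line 19-1 the highest.

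The miRNAs whose levels followed Mir7a1 most closely over the 6 lines were Mir137 (Pearson r = 0.983 on log2 levels), Mir153 (0.966), Mir340-2 (0.937), Mir374b (0.933) and Mir340-1 (0.933), of 177 miRNA genes with a mean of at least 100. The points share their libraries and size factors, 6 lines are few, and the median r of the 177 genes was 0.363, so these values are descriptions. Mir137, like miR-7 an abundant miRNA of neurons, had 799, 378 and 661 normalized reads in control lines 5-9, 2 and 16 and 542, 672 and 428 in PWS lines 3, 19-1 and 19-4. It was lowest in line 2 as miR-7a was.

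At the other end were Mir872 (r = -0.865), Mir1306 (-0.824), Mir672 (-0.800), Mir16 (-0.799) and Mir190b (-0.717). Mir16, which acts on cell cycle genes in many cell types, had 671204, 859473 and 653033 normalized reads in control lines 5-9, 2 and 16 and 650941, 789242 and 828869 in PWS lines 3, 19-1 and 19-4. It was thus highest in the lines in which miR-7a was lowest, lines 2 and 19-4.

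Mir7b correlated with Mir7a1 at r = 0.743. The genes closest to Mir7b were Mir802 (r = 0.938), Mir192 (0.892), Mir99a (0.879), Mir20b (0.847) and Mir194-2 (0.840), none of which was among the 5 closest to Mir7a1. Mir192, an epithelial miRNA, had 158733, 66206 and 122627 normalized reads in control lines 5-9, 2 and 16 and 159281, 164950 and 134708 in PWS lines 3, 19-1 and 19-4. It was lowest in line 2 and highest in line 19-1, like Mir7b.

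Genes of the pathway were followed as well, but only as short fragments in small RNA libraries, which do not measure messenger RNA levels. Of 5 names of host genes, 1 was matched in the table, Hnrnpk, the host of Mir7a1. Of 10 regulators of miR-7, among them Hnrnpk, 7 were matched and Hnrnpk alone had enough reads for a test. It had 13.8 ± 2.76 normalized reads in control and 12.9 ± 5.00 in PWS lines, and the log2 fold change was -0.16 ± 0.40 (adjusted p = 0.961 by limma). Cdr1as, the circular RNA known to bind miR-7, was not analysed here.

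Of 14 genes of miRNA processing and silencing, 8 were tested and 0 were called, with a median log2 fold change of 0.15 and a smallest adjusted p of 0.887. Dicer1, the enzyme that cuts the hairpin to the mature RNA, had 16.9 ± 3.90 normalized reads in control and 12.1 ± 2.75 in PWS lines. Ago2, the Argonaute that cleaves targets, had 7.68 ± 4.59 and 9.39 ± 1.96. Dgcr8, the partner of the nuclear hairpin enzyme Drosha, had 565 ± 96.0 and 584 ± 137, but most of its reads were those of Mir1306, which lies in it, with 472 of 481 normalized reads in line 5-9.

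Of 19 described miR-7 targets, 5 were tested and 0 were called by limma. Irs2, an adaptor of the insulin receptor, had 45.3 ± 6.95 normalized reads in control and 44.4 ± 15.2 in PWS lines. Pax6, a transcription factor of endocrine cells, had 17.2 ± 4.51 and 14.4 ± 6.55. The translation factor Eif4e (5.26 ± 1.54 and 8.08 ± 3.41) and the kinase that phosphorylates it, Mknk2 (9.23 ± 3.36 and 12.8 ± 4.76), were at similarly low levels, at which few reads separate the groups.

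Among fragments of 9 β-cell genes, 7 were tested and 0 were called. Their sum ran from 192 to 435 normalized reads in control lines, lowest in line 2, and from 157 to 288 in PWS lines, lowest in line 19-4. The line with the lowest sum of each group was also that with the least miR-7a, and the part of the one in the other was not tested.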

How the data were processed

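Per the labels and the methods of the study, small RNA was sequenced with a miRNA kit that adds unique molecular identifiers. The submitters' processing notes name UMI-tools 1.0.0, cutadapt 1.18, Bowtie2 2.3.4.2, HTSeq 0.11.2, featureCounts, DESeq2 and Rnor_6.0. The authors deposited a signal, gene counts divided by a DESeq2 size factor per library, in 2 tables that either add ambiguous reads to every gene (main table) or leave them out. All values (100%, tolerance 0.001) were whole multiples of what 1 read was worth, so whole reads were recovered. The authors' own mean, log2 fold change and p-value columns were not used, and 0 per-library columns were left unused.

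The test was limma-trend (limma 3.58.1, R 4.3.3) with genotype as its one term. It took log2 of normalized reads plus 1 for the 4292 genes that averaged 5 or more, and p-values were adjusted over all of them by Benjamini-Hochberg, with calls made at an adjusted p below 0.1. Fold changes are on this scale, which understates those of low genes. Tests were tried on simulated data first. Single ratios were compared by exact permutation (scipy 1.17.1), and counting intervals are 95% Wilson intervals. The rule for named genes took the 3 members, Mir375, Mir16 and Mirlet7f2 as abundant references, the 5 genes most and least correlated with Mir7a1, the 5 most correlated with Mir7b, and tested genes of the lists. Sequences were matched in RefSeq by symbol or synonym (422 of 462 miRNA genes). miRNA genes were taken by symbol or RefSeq biotype, and 4 of them bear the symbol of a snoRNA or scaRNA (at most 0.221% of miRNA reads), such as Scarna15, which holds nearly the same reads as Mir1839. Members and lists were chosen with earlier results of these data known. Alternatives were other pseudocounts, filters and scalings, edgeR 4.0.16 and DESeq2 1.42.0 on recovered reads, the second table, a replicate block, lines 19-1 and 19-4 averaged, leaving out each line, and halving miR-7a. The replicate numbers did not pair the lines. One gene of the target list is not reported here.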

Additional observations from a re-analysis of the deposited data

How the results depend on the processing

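None of the 3 genes was called under any of the 18 alternatives, with adjusted p-values of 0.818 to 1.00. In the fits that kept all 6 lines, the log2 fold change was -0.16 to -0.054 for Mir7a1, -0.14 to -0.040 for Mir7a2 and 0.35 to 0.41 for Mir7b. With 1 line left out it ran from -0.43 to 0.079 for Mir7a1 and from -0.41 to 0.098 for Mir7a2, and from 0.075 to 0.58 for Mir7b. The sign turned for Mir7a1 without line 5-9 (0.079) or line 19-4 (0.0069), and for Mir7a2 without line 5-9 (0.098), line 16 (0.00087) or line 19-4 (0.018). The number of genes called was 41 to 66 around 55. Leaving out both shallow libraries, chosen after seeing the data, gave -0.31, -0.29 and 0.25. Halving miR-7a, also chosen then, leaves the log2 fold changes as they are by construction and moved the difference in Mir7b reads per 1000 miR-7a reads from 0.191 to 0.382 and that in family share from -0.732 to -0.513 percentage points. The difference in Mir7b reads per 1000 miR-7a reads ran from 0.121 to 0.235 with a line left out.

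With the replicate number as a block the log2 fold changes were -0.12, -0.10 and 0.35 and 56 genes were called. Lines with the same number did not deviate together throughout (correlations of 0.414, 0.218 and -0.0574 for numbers 1, 2 and 3), so the numbers give no pairing.

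With 3 clonal lines a group, PWS lines that hold 2 subclones and 1 library per line, line and genotype effects on the family are separated by few samples. Reads of the 2 hairpin arms and of the 2 miR-7a loci are not separable in these tables.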
